A study of Mus musculus with 6 samples.

Results

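The genes described here are 9 members of the MEIS, PBX and PREP branches of the TALE homeobox family and the related gene Tgif1, measured in thymic epithelial cells (TEC) sorted by a Meis1 reporter. The members are Meis1, Meis2, Meis3, Pbx2, Pbx3, Pbx4, Pknox1, Pknox2 and Tgif1. Every non-control probe that the array names for one of these genes, or for an older synonym of it, was taken. This gave 18 of the 41174 probes and 9 of the 28034 genes on the array. Of these genes, 6 had more than 1 probe and 3 had a single probe.

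TALE proteins are transcription factors whose homeodomain carries an extra loop between its first helices. MEIS proteins and the PREP proteins, which are encoded by Pknox1 and Pknox2, bind DNA together with PBX partners, and the pairs act as cofactors of Hox proteins in the body plan and in organ formation. TGIF1 shares the homeodomain type but is best known as a repressor of TGF-beta and retinoid signalling. In the thymus, Hox and Pbx genes are known for their part in forming the organ from the pharyngeal pouch, and Meis1 is best known from the stem and progenitor cells of blood.

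All cells came from 4-week-old C57BL/6 mice that carried the BAC transgene Tg(Meis1-EGFP)FO156Gsat/Mmcd, in which Meis1 regulatory sequence drives EGFP. The sorted cells were CD45- EpCAM+ TEC, and the gates differ in cell size as well as in EGFP. Meis1-high cells were EGFPhigh FSClow (bright and small), Meis1-low cells were EGFPint FSChigh (intermediate and large), and Meis1-negative cells were EGFP- FSClow (dark and small). The reporter reads the BAC and not the MEIS1 protein, no group lacks the transgene, and size and reporter signal cannot be told apart in the comparisons with Meis1-low. Each gate was measured on 2 one-colour arrays, each from a pool of 6 mice. Replicate 1 of every gate lay on slide 1 and replicate 2 on slide 2.

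The brightness at the 75th percentile ranged from 73.3 to 165.2 signal units over the 6 arrays, and the scanner's mark for a signal well above background was set for 53.1% to 69.6% of an array's spots. The defining genes of the labelled cells were present. Epcam, the antigen of the sort, had log2 levels from 2.59 to 4.79, and Foxn1, the regulator of TEC identity, from -0.68 to 1.35. Meis1-negative replicate 1 stood apart from the other arrays in its thymocyte and epithelial markers. The summed linear signal of 19 thymocyte and T cell markers, in units of the array's 75th percentile, was 1208 on that array, 28.3 on Meis1-negative replicate 2, 10.3 and 10.9 on the Meis1-high arrays and 14.6 and 11.5 on the Meis1-low arrays. From 12 to 19 of the 19 markers were well above background on each array, so none of the gates was free of them. Of 12 epithelial markers, 0 were higher on Meis1-negative replicate 1 than on Meis1-negative replicate 2, and their summed signal was 55.0 against 223. Ptprc, which encodes CD45, had levels of 5.17 and 3.17 in Meis1-negative and of -0.69 and 0.37 in Meis1-high. The larger differences from Meis1-negative are therefore given without that array too, a choice made after its markers were seen. In pooled RNA of this kind, fewer cells of a type and less RNA per cell cannot be told apart.

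The probes are 60-base oligonucleotides, and positions are on mm9. The sequences of 4 of them are shown in the sense direction of the gene, because the results turn on where they lie. The first reports the gene that names the gates, the second is the only one that spans a splice junction, the third gave a difference from Meis1-negative that rests in large part on 1 array, and the fourth was at background throughout.
Meis1 A_52_P670612: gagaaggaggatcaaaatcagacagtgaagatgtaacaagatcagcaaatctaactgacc
Meis3 A_52_P575691: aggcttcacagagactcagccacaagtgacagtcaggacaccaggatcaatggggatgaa
Pknox2 A_52_P637756: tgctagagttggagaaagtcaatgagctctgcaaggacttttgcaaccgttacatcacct
Pbx2 A_52_P339182: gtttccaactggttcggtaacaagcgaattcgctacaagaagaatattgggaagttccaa
The Meis1 probe lies at chr11:18911247-18911306 on the minus strand. The Meis3 probe covers chr7:16770024-16770812 on the plus strand, a span of 789 bases for 60 bases of probe, so that 729 bases of genome are skipped. The Pknox2 probe lies at chr9:36731264-36731323 on the minus strand, and the Pbx2 probe at chr17:34731746-34731805 on the plus strand. Each of the 4 holds at least 1 reading frame without a stop. The Pbx2 sequence codes for the DNA-recognition helix of the homeodomain, a stretch that PBX paralogs share closely, so its signal could not be assigned to Pbx2 alone.

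A level below is the log2 signal of a probe relative to the 75th percentile of its array, so that 0 is as bright as that percentile. Levels of different probes are not comparable, because each probe binds with its own efficiency. A probe was tested where it was well above background on both arrays of at least 1 gate. That held for 14 of the 18 probes and 8 of the 9 genes, and Pknox1 was the gene that was not tested. Of the 14 probes, 7 passed in all 3 gates, 4 in 2 gates and 3 in a single gate. A gene with several probes is represented by the one with the highest mean level.

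No member passed the test in any comparison. At an adjusted p under 0.05 in limma, over 26590 probes tested, 0 of the 8 genes were called between Meis1-high and Meis1-negative, where 0% of all probes were called, and the same 0 of 8 and 0% held for the other comparisons. The smallest adjusted p of a member gene was 0.436 for Meis1-high against Meis1-negative, 0.379 for Meis1-high against Meis1-low and 0.653 for Meis1-low against Meis1-negative. Over all probes the smallest values were 0.150, 0.270 and 0.0817. At an unadjusted p under 0.05 in limma, 2 of 8 genes (Meis1 and Pknox2) differed between Meis1-high and Meis1-negative, as 10.1% of all probes did. For Meis1-high against Meis1-low the count was 1 of 8, Meis1 itself, where 12.3% of all probes differed, and for Meis1-low against Meis1-negative it was 0 of 8, where 7.48% did. What follows is therefore a description of levels on each array, with the size and error of each difference. An exact permutation test of 2 arrays against 2 cannot give a two-sided p under 0.333.

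**Figure D1:**
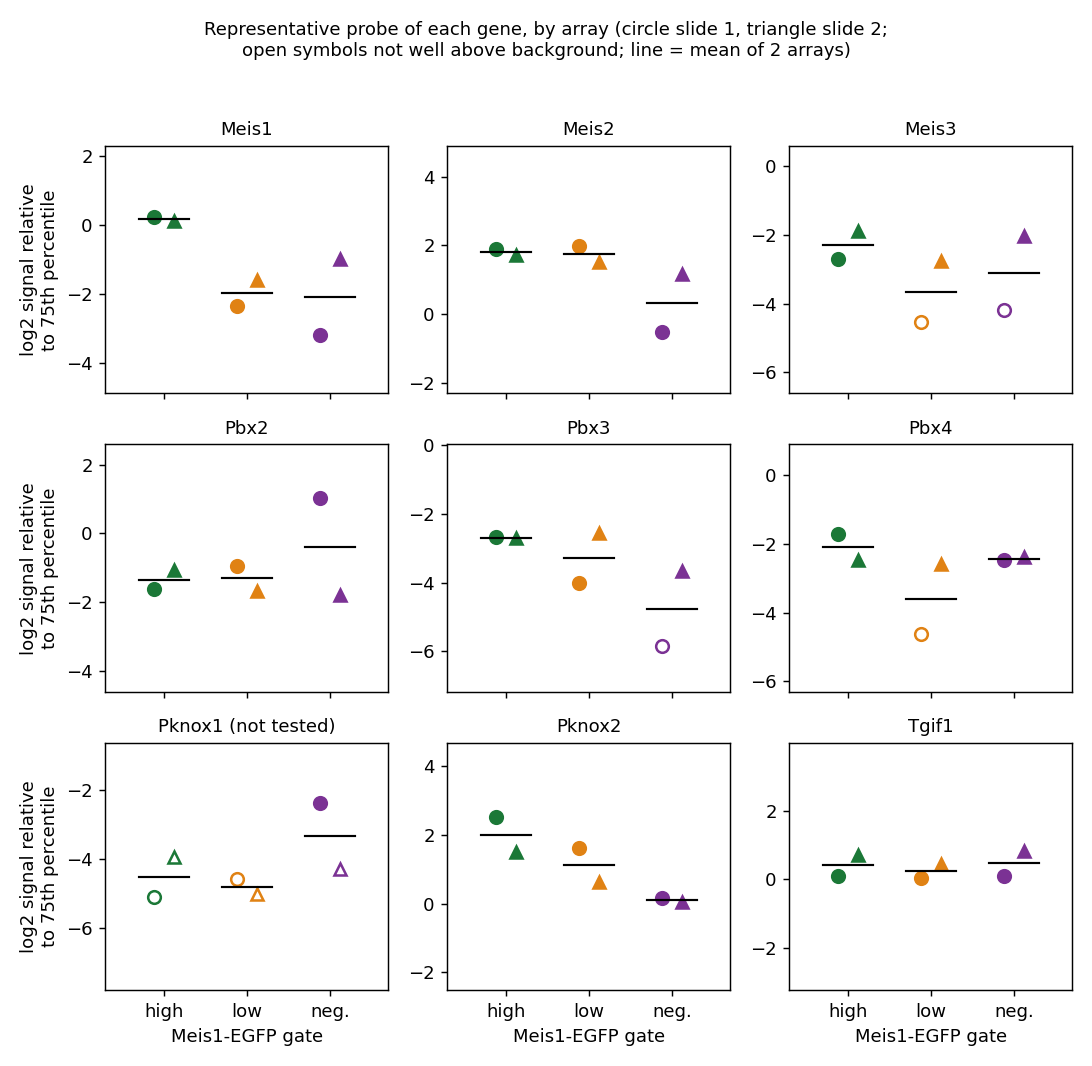
Log2 signal relative to the array's 75th percentile (vertical axis) of the representative probe of each of the 9 genes in the 3 gates (horizontal axis); circles are slide 1, triangles slide 2, open symbols are not well above background and lines are means of 2 arrays. Both Meis1-high arrays of Meis1 lie above the other 4 arrays, while Tgif1 stays between 0.04 and 0.83 on all arrays.

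Meis1, the MEIS gene whose reporter set the gates, was brightest in Meis1-high with both of its probes. The representative probe had levels of 0.24 and 0.12 for Meis1-high, -2.35 and -1.61 for Meis1-low, and -3.20 and -0.99 for Meis1-negative. Both Meis1-high arrays lay above all other arrays, while Meis1-low and Meis1-negative overlapped. The difference between Meis1-high and Meis1-negative was 2.27 ± 0.84 (the SE from 1 spread shared by all 3 gates, limma adjusted p = 0.442), a fold of 4.83. It was 3.44 on slide 1 and 1.11 on slide 2. It was 1.17 without Meis1-negative replicate 1 and 3.38 without Meis1-negative replicate 2, and it was 1.07 with normexp, another background correction. Between Meis1-high and Meis1-low it was 2.16 ± 0.84 (adjusted p = 0.379 in limma), with 2.59 and 1.73 on the slides, and 0.96 with normexp. As in every comparison here, that SE also holds the spread of the Meis1-negative arrays. Their SD was 1.56, against 0.085 for Meis1-high and 0.52 for Meis1-low. Since EGFP driven by Meis1 sequence defined the gates, these differences check the Meis1-high label and are no separate finding.

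The order of the lower gates did not follow the reporter on both slides. Meis1-low minus Meis1-negative was 0.12 ± 0.84 (adjusted p = 0.979 in limma), with 0.86 on slide 1 and -0.62 on slide 2. It was -0.99 without Meis1-negative replicate 1, the thymocyte-rich array, and 1.22 without Meis1-negative replicate 2. The representative probe was well above background on all 6 arrays, so Meis1 signal was measured in the gate sorted as EGFP-negative.

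The second Meis1 probe, A_52_P26195 (chr11:18781206-18781265), lies 129981 bases from the first and is much dimmer. Its levels were -3.08 and -2.64 for Meis1-high, -4.69 and -4.97 for Meis1-low, and -5.89 and -4.02 for Meis1-negative. It was well above background on 2 Meis1-high arrays, on 0 Meis1-low arrays and on 1 Meis1-negative array. Against Meis1-low it was therefore at least 2.60-fold higher, a bound set by the lowest signal well above background on the Meis1-low arrays, with an adjusted p = 0.380 in limma for the fitted difference. Such bounds, here and below, hold for the mean levels measured and leave out the spread between pools. The probe differed by 2.09 ± 0.77 from Meis1-negative (adjusted p = 0.439 in limma), and by 1.16 without Meis1-negative replicate 1. It passed the filter through Meis1-high alone, and since the lower gates were mostly at background here, no order was read between them.

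Meis2 encodes the MEIS paralog that is active in limb, neural crest and heart development, and its 3 probes did not give the same order of gates. The representative probe A_51_P422429 (chr2:115689130-115689189) had levels of 1.90 and 1.71 for Meis1-high, 1.98 and 1.52 for Meis1-low, and -0.52 and 1.18 for Meis1-negative. Meis1-high and Meis1-low overlapped, and both lay above Meis1-negative. The difference was 1.48 ± 0.74 between Meis1-high and Meis1-negative (adjusted p = 0.563 in limma), with 2.41 and 0.54 on the slides and 0.63 without Meis1-negative replicate 1. Between Meis1-low and Meis1-negative it was 1.42 ± 0.74 (adjusted p = 0.653 in limma), and 0.57 without that array. Meis1-high and Meis1-low differed by 0.06 ± 0.74. The probe A_52_P277641, 4 bases away, gave 1.77 and 1.49, then 1.71 and 0.97, then -0.58 and 0.78 in the same order of gates, and its difference between Meis1-high and Meis1-low was 0.28. Its Meis1-high minus Meis1-negative was 1.53, and 0.84 without Meis1-negative replicate 1.

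The third Meis2 probe, A_52_P290211 (chr2:115821828-115821887), lies 132638 bases upstream of the representative one and was designed on a separate complementary DNA. Its levels were 0.65 and -0.01 for Meis1-high, -1.71 and -0.50 for Meis1-low, and -2.15 and -0.20 for Meis1-negative. Here Meis1-high lay above Meis1-low on every array, by 1.43 ± 0.85 (adjusted p = 0.547 in limma), with 2.36 and 0.49 on the slides and 0.82 without Meis1-low replicate 1. Meis1-low and Meis1-negative differed by 0.07 ± 0.85 and overlapped. Meis1-high was above Meis1-negative with each of the 3 probes, by 1.48, 1.53 and 1.50, but by 0.63, 0.84 and 0.53 without Meis1-negative replicate 1. They placed Meis1-low differently. The difference between probes was not tested.

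Meis3, the least widely studied MEIS paralog, was near background in part of the arrays. Its junction-spanning probe had levels of -2.69 and -1.88 for Meis1-high, -4.53 and -2.77 for Meis1-low, and -4.17 and -2.05 for Meis1-negative. It was well above background on 2 Meis1-high arrays and on 1 array of each other gate, so it was tested only through the gate where it is high. Meis1-high lay above Meis1-low on all arrays, by 1.37 ± 0.95 (adjusted p = 0.610 in limma), with 1.84 and 0.90 on the slides and 0.17 with normexp. Against Meis1-negative the gates overlapped, and the difference was 0.83 ± 0.95, turning to -0.24 without Meis1-negative replicate 1.

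**Figure D2:**
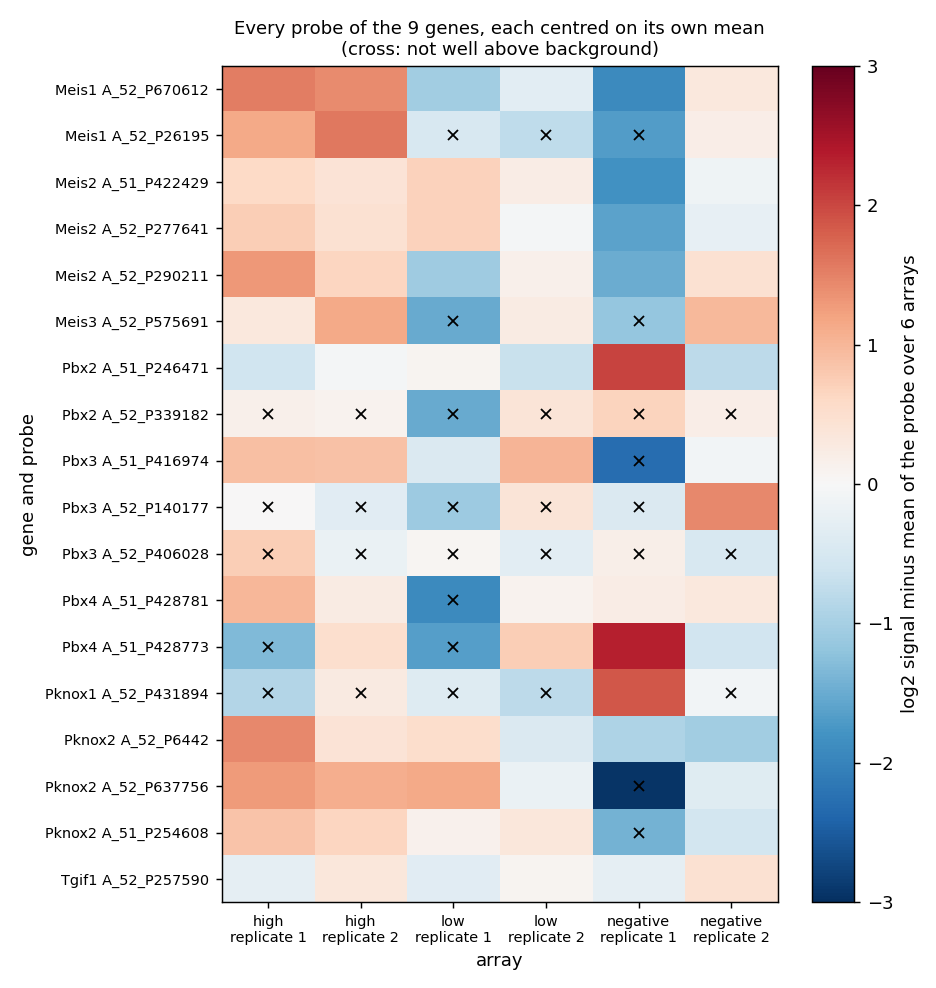
Colour shows the log2 signal of each of the 18 probes (rows, by gene) on each of the 6 arrays (columns) minus that probe's mean over the arrays; crosses mark signals not well above background. Probes of Meis1 and Pknox2 are red in Meis1-high, whereas Pbx2, one Pbx4 probe and Pknox1 are darkest red on Meis1-negative replicate 1.

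The PBX genes encode the DNA-binding partners of MEIS and PREP, and their probes differed in direction. Pbx2, a widely expressed PBX gene, was read by A_51_P246471 (chr17:34733355-34733414) at -1.61 and -1.07 for Meis1-high, -0.94 and -1.67 for Meis1-low, and 1.03 and -1.79 for Meis1-negative. The highest and the lowest level were both in Meis1-negative, and the highest was on the array with the thymocyte markers, whose part in this value was not tested. Meis1-high minus Meis1-negative was -0.96 ± 0.97 (adjusted p = 0.760 in limma), with -2.64 on slide 1 and 0.72 on slide 2, and 0.45 without Meis1-negative replicate 1. Meis1-high and Meis1-low differed by -0.04 ± 0.97, and the gates overlapped in all 3 comparisons. The other Pbx2 probe, the homeodomain one shown above, was well above background on 0 of 6 arrays and gives no level.

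Pbx3, a PBX gene known from the nervous system and from leukaemia cells with high Meis1, was read by A_51_P416974 (chr2:34027483-34027542) at -2.68 and -2.70 for Meis1-high, -4.01 and -2.56 for Meis1-low, and -5.86 and -3.66 for Meis1-negative. Meis1-high lay above Meis1-negative on every array, and Meis1-low overlapped both. The difference between Meis1-high and Meis1-negative was 2.07 ± 0.90 (adjusted p = 0.502 in limma), with 3.18 and 0.97 on the slides and 0.97 without Meis1-negative replicate 1, the 1 array of the 6 where this probe was not well above background. With normexp it was 0.55. Between Meis1-high and Meis1-low it was 0.60 ± 0.90 (adjusted p = 0.828 in limma), with slides of opposite sign at 1.33 and -0.14. The remaining Pbx3 probes, designed on separate complementary DNAs, were not tested. A_52_P140177 was well above background on 1 array, Meis1-negative replicate 2, and A_52_P406028 on 0 arrays.

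Pbx4, the PBX gene best known from testis, had 2 probes 1933 bases apart, whose Meis1-high minus Meis1-negative differed in sign over all arrays. The representative probe A_51_P428781 (chr8:72393975-72394034) had levels of -1.70 and -2.47 for Meis1-high, -4.61 and -2.59 for Meis1-low, and -2.48 and -2.39 for Meis1-negative. Meis1-low was below both other gates on every array, and its lowest array was not well above background. Meis1-high minus Meis1-low was 1.51 ± 0.81 (adjusted p = 0.502 in limma), with 2.91 on slide 1 and 0.12 on slide 2, 0.50 without Meis1-low replicate 1 and 0.21 with normexp. Meis1-high minus Meis1-negative was 0.35 ± 0.81, and 0.30 without Meis1-negative replicate 1. The probe A_51_P428773 (chr8:72395968-72396027) had levels of -4.59 and -2.77 for Meis1-high, -4.93 and -2.54 for Meis1-low, and -0.95 and -3.85 for Meis1-negative. Its Meis1-high minus Meis1-negative was -1.28 ± 1.23 (adjusted p = 0.750 in limma), with -3.64 and 1.08 on the slides and 0.17 without Meis1-negative replicate 1. In the other comparisons the probes had the same sign, with 1.51 and 0.055 for Meis1-high minus Meis1-low and -1.17 and -1.34 for Meis1-low minus Meis1-negative. A_51_P428773 was highest on the array with the thymocyte markers, as Pbx2 was.

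Of the PREP genes, Pknox2 was tested with each of its probes and Pknox1 was not tested. Pknox2 encodes PREP2, the PREP protein of narrower tissue range, and all 3 of its probes were higher in Meis1-high than in Meis1-negative on every array. The representative probe A_52_P6442 (chr9:36698752-36698811) had levels of 2.53 and 1.50 for Meis1-high, 1.61 and 0.65 for Meis1-low, and 0.17 and 0.05 for Meis1-negative. On each slide the gates ran from Meis1-high over Meis1-low to Meis1-negative, although the Meis1-high and Meis1-low arrays overlapped between slides. The difference between Meis1-high and Meis1-negative was 1.90 ± 0.69 (adjusted p = 0.436 in limma), a fold of 3.74, with 2.36 and 1.45 on the slides. It was 1.96 for this probe without Meis1-negative replicate 1, whereas the other probes gave smaller values without that array. Meis1-high minus Meis1-low was 0.88 ± 0.69 (adjusted p = 0.653 in limma) and Meis1-low minus Meis1-negative was 1.02 ± 0.69 (adjusted p = 0.692 in limma).

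The other Pknox2 probes lie 32006 bases from the representative one and 386 bases from each other. A_51_P254608 (chr9:36730818-36730877) had levels of -1.98 and -2.20 for Meis1-high, -2.72 and -2.52 for Meis1-low, and -4.26 and -3.40 for Meis1-negative. It was the 1 probe of 14 with Meis1-high above Meis1-low above Meis1-negative on every array, an order that 1.32% of all tested probes had. Its difference from Meis1-negative was 1.74 ± 0.63 (adjusted p = 0.436 in limma), and 1.31 without Meis1-negative replicate 1. A_52_P637756, shown above, had levels of -1.19 and -1.38, then -1.32 and -2.65, then -5.41 and -2.82 in the same order of gates. Its difference from Meis1-negative was 2.83 ± 0.96 (adjusted p = 0.408 in limma), but 1.54 without Meis1-negative replicate 1, where it was not well above background.

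Pknox1 encodes PREP1, the widely expressed PREP protein, and its probe A_52_P431894 (chr17:31744266-31744325) was well above background on 1 array of 6. Its levels were -5.10 and -3.94 for Meis1-high, -4.60 and -5.01 for Meis1-low, and -2.36 and -4.30 for Meis1-negative, and the 1 measured array was Meis1-negative replicate 1. That is the array with the thymocyte markers, whose part in this level was not tested. No fold is given for this gene, since its Meis1-high minus Meis1-negative was -2.74 on slide 1 and 0.37 on slide 2, and -0.21 without that array, among signals at background.

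Tgif1, the TGIF repressor gene, varied least among the members. Its probe A_52_P257590 (chr17:71194438-71194497) had levels of 0.10 and 0.71 for Meis1-high, 0.04 and 0.46 for Meis1-low, and 0.11 and 0.83 for Meis1-negative. The gates overlapped in every comparison, and each array of slide 2 lay above its slide 1 counterpart. Its differences were -0.06 ± 0.65, 0.16 ± 0.65 and -0.22 ± 0.65 (adjusted p = 0.979, 0.945 and 0.940 in limma) for Meis1-high against Meis1-negative, Meis1-high against Meis1-low and Meis1-low against Meis1-negative. Without Meis1-negative replicate 1 the first was -0.42 and the last -0.58.

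**Figure D3:**
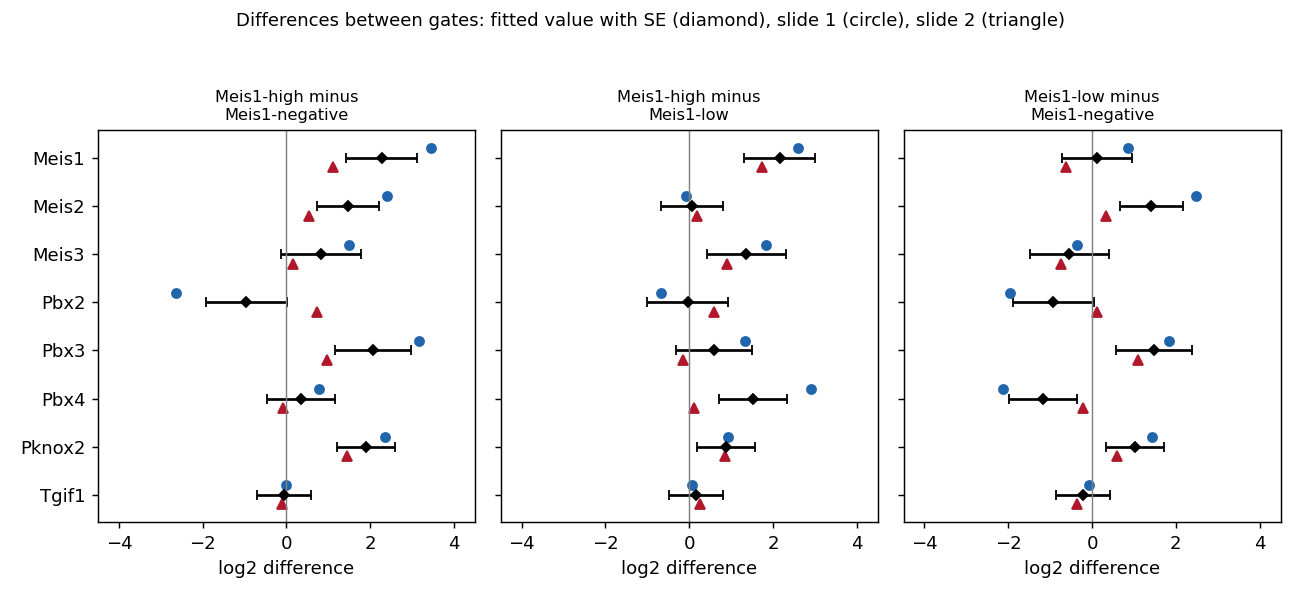
Log2 differences (horizontal axes) between gates for the 8 tested genes (vertical axis), with the fitted value and its SE as a diamond with bars, slide 1 as a circle and slide 2 as a triangle. For Meis1-high minus Meis1-negative the circles of Meis1, Meis2 and Pbx3 lie at 3.44, 2.41 and 3.18 and their triangles at 1.11, 0.54 and 0.97.

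Set beside all probes of the array, more members lay higher than lower in Meis1-high, with 0 passing the test. In Meis1-high against Meis1-negative, 4 of the 8 genes and 9 of 14 probes were higher with no overlap of the arrays, where 19.6% of all tested probes were, and 0 were lower, where 19.8% of all were. The 4 genes were Meis1, Meis2, Pbx3 and Pknox2. The median difference of the 8 genes was 1.15, against -0.09 over all tested probes, and 6 of 8 were above 0, where 46.6% of all were. Without Meis1-negative replicate 1, a choice made after its markers were seen, 5 genes were higher and 1 lower than the remaining array, where 31.1% and 37.4% of all probes were, and the median was 0.54. The median was 1.87 without Meis1-negative replicate 2 and 0.46 with normexp. Meis1, whose values only check the label of the gates, is among the 4 genes, the 9 probes and the medians. Its probe A_52_P26195 passed the filter through Meis1-high alone, while the representative probes of the 4 genes passed in more than 1 gate. Of the probes counted, Pbx3 A_51_P416974 and Pknox2 A_52_P637756 and A_51_P254608 passed through Meis1-high and Meis1-low but not through Meis1-negative. These counts describe the tested members and are no support for a difference.

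In Meis1-high against Meis1-low, 3 of 8 genes and 6 of 14 probes were higher with no overlap, where 24.0% of all probes were, and 0 were lower, where 28.1% of all were. These genes were Meis1, Meis3 and Pbx4. The reporter of Meis1 set the gates, and Meis3 passed the filter through Meis1-high alone. The counts and medians here are thus a description and no support for a difference. The median was 0.74 against -0.06 over all probes, and 7 of 8 genes were above 0, where 47.7% of all were. That median was 0.41 without Meis1-low replicate 1 and 0.18 with normexp. With normexp, 1 gene was higher and 1 lower with no overlap, but the share of all probes was not computed there, so that count is not read. In Meis1-low against Meis1-negative, Meis2 and Pknox2 were higher and Pbx4 lower with no overlap, where 20.9% and 17.7% of all probes were, and 4 of 8 genes were above 0, where 48.9% of all were, with a median of -0.05 against -0.03. That median was 0.41 without Meis1-low replicate 1 and 0.15 with normexp, and it ranged from -0.34 to 0.74 with an array left out. Without Meis1-negative replicate 1, 3 genes were higher and 4 lower than the remaining array, where 33.4% and 33.5% of all probes were. Meis1 was the 1 gene of 8 whose Meis1-high arrays lay above both other gates, as 13.5% of all tested probes did.

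For Meis1-high minus Meis1-negative, 8 of the 9 genes, Pknox1 included, had the larger absolute difference on slide 1, with a median of 2.41 there and 0.54 on slide 2. The slides agreed on a higher level in Meis1-high for 5 genes, agreed on a lower one for 1 and disagreed for 3. The slide 1 value of each gene holds Meis1-negative replicate 1, so the slide and that array cannot be told apart here. For Meis1-high minus Meis1-low, which does not use that array, the medians of the absolute differences were 0.92 and 0.60, and 5 of 9 genes were higher in Meis1-high on both slides while the slides disagreed for 4.

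How alike the member probes were over the 6 arrays was described by the root-mean-square difference of their centred log2 levels, a measure in which 0 is the same pattern at the same size. The closest pair was the neighbouring Meis2 probes at 0.160, and the 2 Meis1 probes lay at 0.360. Between genes, the closest were Meis2 A_52_P277641 and Pknox2 A_51_P254608 at 0.329, and the third Meis2 probe A_52_P290211 lay at 0.419 from the representative Meis1 probe. Among the representative probes of the other genes, Meis3 at 0.713 and Pbx3 at 0.724 were nearest to Meis1, with 5.47% and 5.86% of all tested probes nearer still. Meis2 followed at 0.943, Pknox2 at 1.02, Pbx4 at 1.09 and Tgif1 at 1.14. Pbx2 was farthest at 2.04, with 87.8% of all tested probes nearer.

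The genes most like Meis1 by the same measure were sought among those named through the RefSeq table, with the 9 members left out. The 5 nearest were no TALE genes. They were Nfat5 at 0.158, which encodes a transcription factor of the osmotic stress response, the interferon-inducible Ifi27l2a at 0.161, Limch1 at 0.175, Arid5b at 0.199 and Cgrrf1 at 0.209. The nearest tested probe of another member lay farther off, at 0.419. Nfat5 had levels of 3.28 and 2.81 for Meis1-high, 0.33 and 1.35 for Meis1-low, and -0.12 and 1.85 for Meis1-negative. As with Meis1, its Meis1-negative replicate 1 was the lowest array and its Meis1-negative replicate 2 lay above both Meis1-low arrays. The measure was taken over 6 arrays that share slides, and the part of the slide in these patterns was not tested.

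The rest of the TALE family and the Hox genes, the partners of these factors, gave no calls either. Of 9 other TALE genes on the array, 5 were tested, and 0 were called in limma in any comparison. Between Meis1-high and Meis1-negative, 3 of the 5 were above 0, where 46.6% of all tested probes were, with a median difference of 0.26, and 2 were higher and 0 lower with no overlap, where 19.6% and 19.8% of all were. The median was -0.26 without Meis1-negative replicate 1. Between Meis1-high and Meis1-low, 2 of 5 were above 0, where 47.7% of all were, with a median of -0.69, and 2 were higher and 2 lower with no overlap, where 24.0% and 28.1% of all were. Between Meis1-low and Meis1-negative, 5 of 5 were above 0, where 48.9% of all were, with a median of 1.01, but 3 of 5 and 0.23 without Meis1-negative replicate 1.

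Of 38 Hox genes on the array, 20 were tested and 0 called in limma. Against Meis1-negative, 16 were above 0 in Meis1-high and 4 below, where 46.6% of all tested probes were above 0, and the median was 0.80. There, 7 of 20 were higher and 0 lower with no overlap, where 19.6% and 19.8% of all were. Without Meis1-negative replicate 1, 12 were above 0 and the median was 0.080. Against Meis1-low, 11 were above 0 and 9 below, with a median of 0.19, and 8 were higher and 5 lower with no overlap, where 24.0% and 28.1% of all were. Between Meis1-low and Meis1-negative, 15 were above 0 and 5 below, with a median of 1.13, and 7 were higher and 3 lower with no overlap, where 20.9% and 17.7% of all were. Without Meis1-negative replicate 1, 10 were above 0 and 10 below, with a median of 0.030. Low probes entered these counts only if they were above background in some gate.

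By the rule for naming, 7 of the 25 tested genes of these lists had Meis1-high above both other gates on every array, as 13.5% of all tested probes did. The 6 with the largest difference from Meis1-negative are described. They were chosen for that order and size, so their values are a description and no support for a difference. Hoxa3, a Hox gene needed for thymus formation, had levels of 2.87 and 2.09 for Meis1-high, -1.16 and -0.74 for Meis1-low, and 0.49 and 0.64 for Meis1-negative. It differed by 3.43 ± 0.63 from Meis1-low (adjusted p = 0.270 in limma) and by 1.91 ± 0.63 from Meis1-negative (adjusted p = 0.402 in limma), or 1.84 without Meis1-negative replicate 1. Unlike Meis1, it was lower in Meis1-low than in Meis1-negative with no overlap. Hoxa4, its neighbour in the cluster, had levels of -0.11 and -1.37 for Meis1-high, -6.37 and -4.20 for Meis1-low, and -1.80 and -3.65 for Meis1-negative. Its mean level was at least 11.3-fold higher in Meis1-high than in Meis1-low, where it was not well above background (adjusted p = 0.270 in limma), a bound that leaves out the spread between pools. Its difference from Meis1-negative was 1.99, and 2.91 without Meis1-negative replicate 1.

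Hoxb2, a patterning gene of the hindbrain and pharyngeal region, had levels of 0.96 and -0.94 for Meis1-high, -5.99 and -2.89 for Meis1-low, and -5.11 and -3.94 for Meis1-negative. Its difference from Meis1-negative was 4.53 ± 1.15 (adjusted p = 0.323 in limma), and 3.95 without Meis1-negative replicate 1. The Hoxb2 probe was well above background on 1 array of each lower gate, so it was tested only through the gate where it is high. Hoxa2, a patterning gene of the pharyngeal arches, was at least 4.82-fold higher in Meis1-high than in Meis1-negative (adjusted p = 0.326 in limma), or at least 5.97-fold without Meis1-negative replicate 1, and differed by 1.99 ± 0.66 from Meis1-low (adjusted p = 0.320 in limma). Among the TALE genes, Mkx, a regulator of tendon cells, had levels of 0.93 and 2.22 for Meis1-high, -1.16 and -0.55 for Meis1-low, and -2.65 and -0.26 for Meis1-negative. Its differences were 3.03 ± 0.93 from Meis1-negative and 2.43 ± 0.93 from Meis1-low (adjusted p = 0.375 and 0.370 in limma), and the first was 1.84 without Meis1-negative replicate 1. Irx2, of the Iroquois branch, was at least 3.58-fold higher in Meis1-high than in Meis1-negative (adjusted p = 0.304 in limma), or at least 4.43-fold without Meis1-negative replicate 1. Like Hoxb2, it was tested through Meis1-high alone. Of 12 fibroblast and pericyte markers, from 9 to 10 were well above background on each array. Their summed signals were 92.3 and 61.6 for Meis1-high, 54.6 and 39.8 for Meis1-low, and 72.8 and 46.0 for Meis1-negative. Single genes set much of these sums, with Rgs5 at levels of 6.04 and 5.67 in Meis1-high. Dcn, at 3.41 and 1.88 in Meis1-high, and Fbn1, at 1.73 and 0.43, lay above both other gates on every array there. So did Col1a2, Rgs5 and Pdgfra, though Pdgfra was well above background on Meis1-high replicate 1 alone. Col1a1 lay below both other gates, at -0.72 and -0.97, and the remaining markers overlapped another gate. Thy1 was at 5.86 on Meis1-negative replicate 1, the thymocyte-rich array. The median levels of the markers were 0.96 and -0.10 for Meis1-high, -0.39 and -0.87 for Meis1-low, and -0.75 and 0.02 for Meis1-negative. The part of fibroblasts and pericytes in the Hox, Mkx and member values was not tested.

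**Figure D4:**
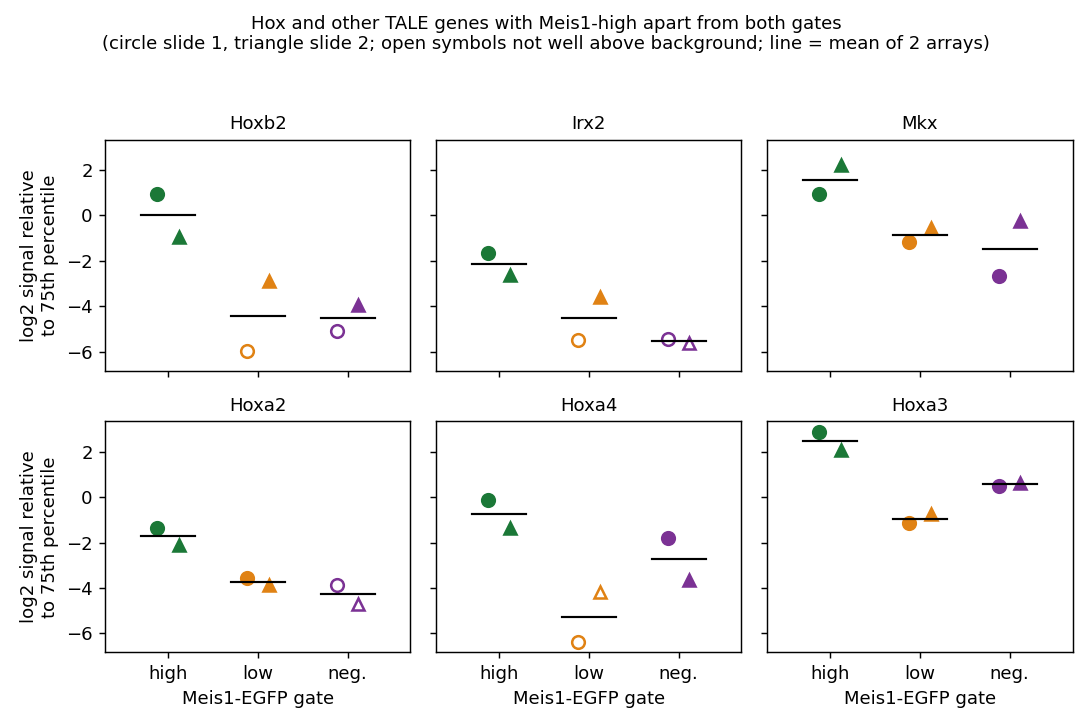
Log2 signal relative to the array's 75th percentile (vertical axes) of the 6 named Hox and other TALE genes in the 3 gates (horizontal axes); circles are slide 1, triangles slide 2, open symbols are not well above background and lines are means of 2 arrays. By the rule that chose these genes, both Meis1-high arrays lie above all 4 other arrays in each panel. Hoxa3 and Hoxa4 are lowest in Meis1-low.

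Of 16 other genes on the array whose products are known to bind or act with MEIS and PBX proteins, 15 were tested, and 0 were called in limma. Between Meis1-high and Meis1-negative, 9 were above 0 and 6 below, where 46.6% of all tested probes were above 0, with a median of 0.59, and 7 were higher and 2 lower with no overlap, where 19.6% and 19.8% of all were. The median was 0.41 without Meis1-negative replicate 1. Between Meis1-high and Meis1-low, 11 were above 0 and 4 below, where 47.7% of all were above 0, with a median of 0.33, and 8 were higher and 1 lower with no overlap, where 24.0% and 28.1% of all were. Between Meis1-low and Meis1-negative, 7 were above 0 and 8 below, where 48.9% of all were above 0, with a median of -0.03.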

How the data were processed

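RNA from 3 gates of sorted mouse TEC was measured on 6 one-colour Cy3 arrays after amplification from 10 ng, per the labels. The deposited signal, per the file headers, is an intensity from Agilent Feature Extraction 9.5.3.1, background-subtracted and detrended, with probe positions on mm9. The authors' deposited value table is on a log2 scale and centred on each probe's median by its values. It was used only as an alternative: its columns correlate with the centred scanner signals at 0.9998 or above, and their medians are 0.16, 0.04, -0.17, -0.02, 0.03 and -0.01 for replicates 1 and 2 of Meis1-high, Meis1-low and Meis1-negative. Its scaling and centring are not stated in the sources used here, and higher values mean higher signal.

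Control spots and the 53 to 78 outlier spots per array were left out, 40 probes then had a missing value, spots were averaged per probe, and the 75th percentile of log2 signal was subtracted per array. For 15.5% to 28.2% of spots the scanner software had put in a surrogate signal. Well above background means 13 times the background SD, per the file headers. Gene names were updated through the RefSeq table by accession for 26682 probes, by symbol for 5195 and by synonym for 951; for 8346 the array's own name was used. The comparisons used limma 3.58.1 in R 4.3.3 (1 mean per gate, 3 residual and 4.45 prior degrees of freedom, Benjamini-Hochberg over 26590 probes, threshold 0.05). The fit was tested on simulated data. Over the tested probes, the median SD of a gate's arrays was 0.492 for Meis1-high, 0.422 for Meis1-low and 0.745 for Meis1-negative. Tables and figures used Python 3.11.15 with pandas 2.3.3 and matplotlib 3.10.9.

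The series describes 2 independent experiments, and same-numbered pools share a slide. Replicate differences correlated over probes at 0.198 for Meis1-high with Meis1-low, 0.120 for Meis1-high with Meis1-negative and 0.111 for Meis1-low with Meis1-negative. The pools may thus be paired, but the labels do not state it. Every SE and p given in the Results comes from the fit without pairing, and the fit with the replicate block is an alternative. With the block, the SEs of Meis1-high minus Meis1-negative ran from 0.57 for Tgif1 to 0.89 for Pbx2, against 0.65 and 0.97 without it. The p-values measure the spread between these pools. The number of arrays limits the precision.

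The members, gene lists, tests and alternatives were chosen with earlier results of these data known, in which Meis1 and a TALE list had been described. The text names the 9 members with every probe. It names at most 6 other TALE or Hox genes whose Meis1-high arrays do not overlap either other gate, taking the largest differences from Meis1-negative. It also names the 5 genes nearest to Meis1 by root-mean-square difference, members left out. The alternatives tried were background correction by normexp (offset 50), scaling by quantiles or by the median, testing without a filter or with one on 4 arrays, a floor, the replicate block, 1 probe per gene, the authors' values, outlier spots kept, array weights, only the 4 arrays compared, other probes of a gene and each array left out. Markers of B cells, macrophages and dendritic cells, erythroid, pan-leukocyte, endothelial and thymic epithelial cells were read too. Their summed signals, lowest to highest array, were 2.49 to 8.72, 6.57 to 45.0, 1.89 to 8.79, 16.4 to 132, 1.18 to 2.09 and 269 to 1006. The macrophage and dendritic cell sums were 12.5 and 11.6 for Meis1-high, 45.0 and 42.4 for Meis1-low, and 6.57 and 34.8 for Meis1-negative. The erythroid sums were 2.67 and 1.90, then 8.79 and 7.89, then 1.89 and 5.41 in the same order of gates. The part of these cells in the member values was not tested.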

Additional observations from a re-analysis of the deposited data

How the results depend on the processing

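Member genes called numbered 0 under each of the 18 alternatives in each comparison, the replicate block included, where the smallest adjusted p of a member in limma was 0.381 for Meis1-high against Meis1-negative, 0.304 for Meis1-high against Meis1-low and 0.549 for Meis1-low against Meis1-negative; the block changed no call. The smallest of any alternative was 0.0553, for Meis1 in Meis1-high against Meis1-negative without Meis1-negative replicate 2, and the adjusted p of that result ranged up to 0.999. The count of probes called in limma, 0 as reported, was more sensitive. For Meis1-high against Meis1-negative it was 402 with normexp (175 higher, 227 lower), 87 with median scaling (5 higher, 82 lower), 19 with the floor (1 higher, 18 lower) and from 0 to 851 with an array left out, the highest without Meis1-negative replicate 2. For Meis1-high against Meis1-low it was 274 with normexp (124 higher, 150 lower). For Meis1-low against Meis1-negative it was 161 with normexp (24 higher, 137 lower), 16 with median scaling (0 higher, 16 lower) and from 0 to 587 with an array left out, the highest again without Meis1-negative replicate 2. The cause was not tested. The median of Meis1-high minus Meis1-negative over all tested probes was -0.09, and became -0.21 with median scaling and 0.09 with normexp.

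Of 450 member differences under an alternative, 427 kept their sign and 23 reversed; 11 of the 24 results never reversed. With an array left out, Meis1-high minus Meis1-negative reversed within -0.037 to 0.73 for Pbx4, -0.42 to 0.30 for Tgif1, -0.24 to 1.89 for Meis3 and -2.37 to 0.45 for Pbx2. Meis1-high minus Meis1-low did so within -0.17 to 0.29 for Meis2, -0.40 to 0.33 for Pbx2, -0.13 to 1.32 for Pbx3 and -0.15 to 0.46 for Tgif1. Meis1-low minus Meis1-negative did so within -1.60 to 0.52 for Meis3, -0.99 to 1.22 for Meis1, -2.33 to 0.49 for Pbx2 and -0.58 to 0.14 for Tgif1. The other Pbx4 probe, A_51_P428773, gave -1.28 for Meis1-high minus Meis1-negative. Normexp gave -0.0066 for Pbx3 in Meis1-high minus Meis1-low, and 0.19 for Meis3 and 0.080 for Pbx4 in Meis1-low minus Meis1-negative, and quantile scaling gave -0.078 for Meis1 there. Overlap of gates needs both arrays, so it was not recomputed with an array left out except without Meis1-negative replicate 1, an alternative chosen after seeing the data. There, Meis1-low against the remaining Meis1-negative array had 3 genes higher and 4 lower, against 33.4% and 33.5% of all probes. Leaving that array out, also chosen after seeing the data, reversed Meis1-low minus Meis1-negative for Mkx, to -0.59, and for Hoxb2, to -0.50. Signal over background limits Meis3, Pbx3, Pbx4 and Pknox1 most.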
